A study of Mus musculus with 18 samples.

Results

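The 10 genes that encode the NF-kB subunits and their main inhibitors were examined by RNA-seq in splenic regulatory T cells (Tregs) of mice with and without CHD8, a chromatin remodeler. The genes were chosen by name as the 5 subunits Rela, Relb, Rel, Nfkb1 and Nfkb2, and the 5 inhibitors or feedback regulators Nfkbia, Nfkbib, Nfkbid, Nfkbiz and Tnfaip3. All 10 were found among the 35865 genes that the RNA table lists once, and all 10 were among the 15240 genes with enough expression to be compared. The libraries were made from YFP+ cells, sorted out of CD4+ T cells from spleen, with 1 library for each of 2 WT and 2 Chd8-/- mice.

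The Chd8-/- libraries carry the genotype label CHD8Flox/FloxFoxp3YFP-Cre, in which a YFP and Cre fusion expressed from the Foxp3 locus deletes the floxed Chd8 alleles in cells that express Foxp3. The WT libraries carry the label CHD8flox/floxFoxp3YFP-Cre/+, which also names floxed alleles, while the study describes these mice as WT littermates. The grouping into W and K libraries in the sample titles was used. All 4 libraries are also labelled with a poly IC injection, so that this treatment, where given, is shared by both genotypes. The labels give no age for the animals. Chd8 itself was listed at 24.7 and 27.6 TPM (a normalized expression value, in which reads are divided by exon length and rescaled to a fixed total per library) in the WT libraries, and at 14.9 and 11.4 TPM in the Chd8-/- libraries. The genotypes did not overlap, and the log2 difference was -0.95 (SE 0.29, limma adjusted p = 0.455). Reads were thus still assigned to the gene in the Chd8-/- libraries. Whether they lie in the deleted part cannot be told from a value per gene, and exons of Chd8 share 654 bases, 7.70% of their length, with the antisense gene Gm26590.

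NF-kB is a family of transcription factors that bind DNA as dimers of Rel-family subunits. RelA, RelB and c-Rel carry a transactivation domain, whereas Nfkb1 and Nfkb2 encode precursors that are processed into the DNA-binding subunits p50 and p52. In resting cells, inhibitors of the IkB class hold the dimers in the cytoplasm until the IkB kinase (IKK) complex marks them for degradation. In Tregs, c-Rel is known for its part in the induction of Foxp3, the lineage-defining transcription factor.

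Several inhibitor genes are known as NF-kB targets, so the promoter stretches with the NF-kB consensus are shown for 4 members whose genes take part in this feedback or, for Rel, lead the family in level. Of the 10 members, 7 had a promoter window in the RefSeq table (GRCm38, 250 bases before to 50 after a start site). The 10-letter NF-kB consensus was searched on both strands, and overlapping matches were counted as 1 stretch. It was found in a window of 5 of these 7 genes, namely Rel, Nfkb2, Nfkbia, Nfkbid and Tnfaip3, and its letters were not in the windows of Rela and Nfkbib. Of all 32851 windows, 4.51% held it, as did 5.14% of the 27025 genes with a window. The sequences are given on the strand of the gene, with the matched bases in capitals.
Rel, chr11:23771042-23771071, minus strand: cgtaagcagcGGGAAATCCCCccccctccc
Nfkbia, chr12:55492657-55492686, minus strand: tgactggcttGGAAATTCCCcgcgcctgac
Nfkbid, chr7:30422170-30422199, plus strand: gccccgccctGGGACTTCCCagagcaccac
Nfkbid, chr7:30422215-30422244, plus strand: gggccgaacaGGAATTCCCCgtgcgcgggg
Tnfaip3, chr10:19015516-19015545, minus strand: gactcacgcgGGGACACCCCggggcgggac
Tnfaip3, chr10:19015411-19015440, minus strand: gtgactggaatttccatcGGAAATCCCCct
The match in Nfkbia lay 29 to 20 bases before the start site, and the stretch of overlapping matches in Rel lay 92 to 82 bases before it. Both Nfkbid stretches lie upstream of an internal start site of that gene and downstream of its first start site. These matches describe the letters and give no evidence of binding.

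The libraries differed in their content of transcripts of other cells. Recovered from the steps in the TPM values, between 8230000 and 11700000 reads fell on genes in each library. Markers of Tregs were present in all 4, with Foxp3 at 202.8 and 215.4 TPM in WT and at 232.1 and 205.3 TPM in Chd8-/- libraries, and the 10 Treg markers summed to 3601 to 4304 TPM. Chd8-/- replicate 2 stood apart at the high end. Its 9 myeloid markers summed to 1494.5 TPM, against 33.2 TPM in Chd8-/- replicate 1 and 154.6 and 122.6 TPM in the WT libraries. Its 7 erythroid and platelet markers summed to 1982.2 TPM, against 1.0, 370.2 and 330.4 TPM, and Ppbp, a platelet marker, was listed at 0 in all 4 libraries. The 6 B cell markers in the table summed to 139.8 TPM in that library and to 29.7 to 43.9 TPM in the others, whereas the 8 markers of CD8 T and NK cells spanned 60.2 to 96.6 TPM with no library apart. The part of these cells in the results was not tested, and values without Chd8-/- replicate 2 are given for the members that the results turn on. Such values do not even out the genotypes. Chd8-/- replicate 1, which then remains, lay below both WT libraries for the myeloid and the erythroid and platelet markers. Xist was listed at 500.2 to 843.3 TPM and 4 Y-linked genes (Ddx3y, Kdm5d, Eif2s3y and Uty) at 0 in all 4 libraries, although the study describes animals of both sexes in each genotype. The libraries of both genotypes were thus alike in these Y-linked genes.

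**Figure D1:**
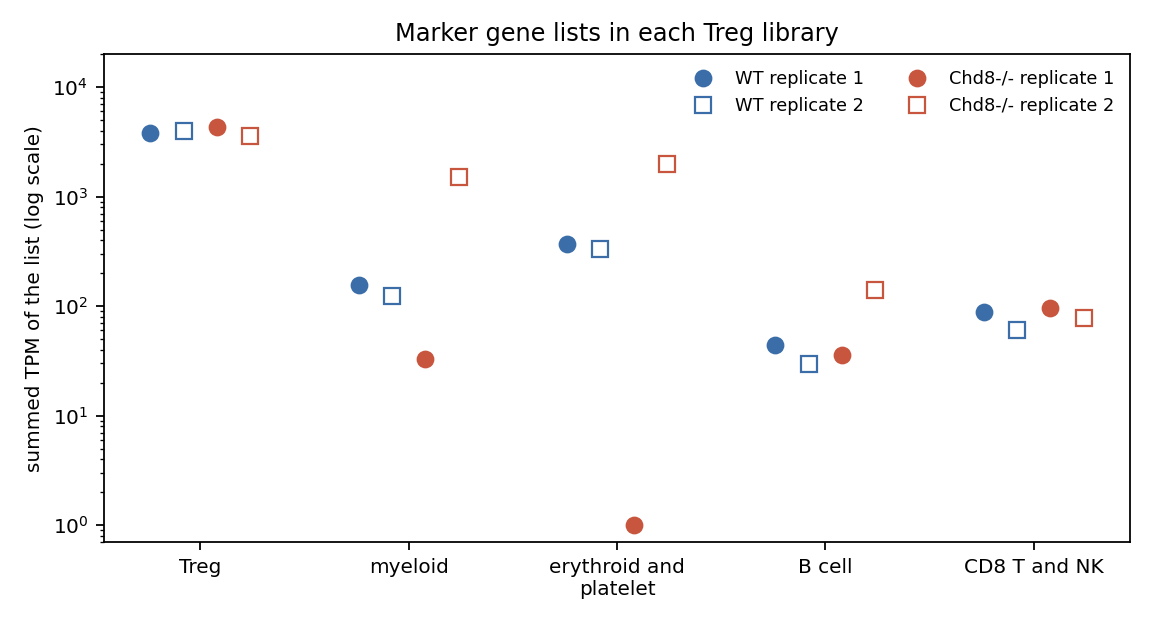
Summed TPM (log scale) of 5 marker gene lists in each library, with WT in blue, Chd8-/- in red, replicate 1 filled and replicate 2 open. Chd8-/- replicate 2 lies above the other 3 libraries for myeloid, erythroid and platelet, and B cell markers, while the Treg markers are at 3601 to 4304 TPM throughout.

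The question put to these genes was whether the RNA of NF-kB subunits and inhibitors differs between Chd8-/- and WT Tregs. The study reports early, fatal inflammation and activated Tregs in Chd8-/- mice. Loss of CHD8 in the cell and the inflamed state of the animal therefore cannot be told apart in these libraries. From RNA-seq, the study also names TNFA signaling via NFKB among upregulated pathways, a gene set result that was not recomputed here. It lists differing genes at a log2 cutoff of 1 and an FDR of 0.05, without naming the test. No member passed an adjusted p of 0.05 in limma, and neither did any of the 15240 genes (0% called, with 595 genes higher and 960 lower at an unadjusted p under 0.05). The largest differences were in the inhibitors. Nfkbid was lower in both Chd8-/- libraries, Nfkbib was higher in both, and the subunits lay close to their WT values. Of the 10 members, 3 were higher in both Chd8-/- libraries than in both WT libraries (Rela, Nfkbib and Tnfaip3), as were 14.8% of all genes tested. Another 2 were lower in both (Nfkbia and Nfkbid), as were 27.8% of all genes tested, and the other 5 members overlapped between genotypes. The 5 members without overlap stand against 42.6% of all genes tested. The median log2 difference over the members was -0.03, beside -0.15 over all genes tested. Quantile normalization, which gives all libraries the same distribution, moved the latter to 0.00, and then 5 members were higher and 3 lower without overlap, beside 21.0% and 21.3% of all genes tested. Relative to the median of all genes, the values as deposited were 1.06 for Nfkbib and -1.02 for Nfkbid. With 2 mice on each side, the smallest p that an exact permutation test allows is 0.333.

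**Figure D2:**
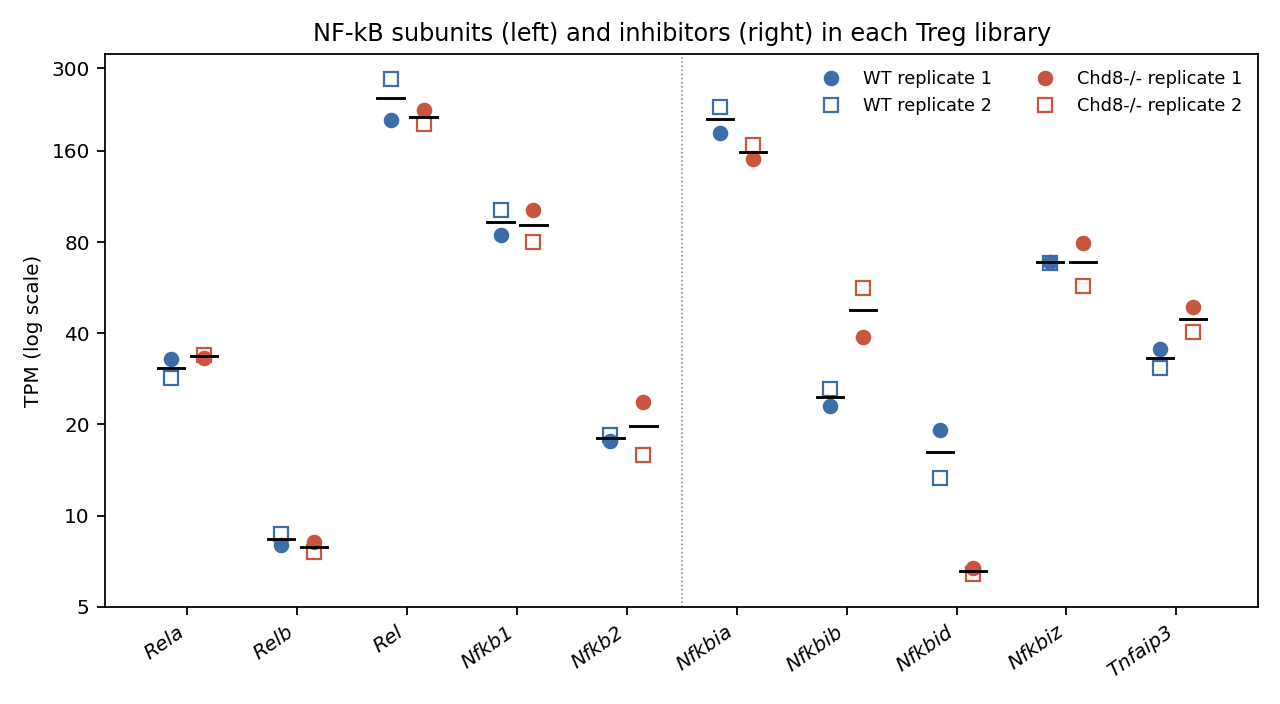
TPM (log scale) of the 10 members in each library, with subunits left and inhibitors right of the dotted line. Points are mice (WT in blue, Chd8-/- in red, replicate 1 filled, replicate 2 open) and bars are means, and Nfkbid shows Chd8-/- values of 6.7 and 6.4 below WT values of 19.1 and 13.3.

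Among the transactivating subunits, Rel (chr11:23736847-23770969, minus strand, GRCm38), which encodes c-Rel, was the most abundant member in both genotypes. It was listed at 201.9 and 276.6 TPM in WT and at 218.1 and 195.6 TPM in Chd8-/- Tregs. The WT libraries spanned more than the Chd8-/- libraries and the genotypes overlapped, with a log2 difference of -0.19 (SE 0.23, limma adjusted p = 0.794). Rela (chr19:5637442-5648134, plus strand) encodes RelA, also called p65, the usual partner of p50 in the canonical pathway. It was at 32.8 and 28.5 TPM in WT and at 33.2 and 34.0 TPM in Chd8-/- Tregs. Both Chd8-/- values were above both WT values, but by only 0.4 TPM at the nearest pair, which is within counting error, since the 95% Poisson intervals were 29.8 to 36.1 TPM for WT replicate 1 and 30.6 to 36.0 TPM for Chd8-/- replicate 1. The log2 difference of Rela was 0.13 (SE 0.23, limma adjusted p = 0.867). Relb (chr7:19606217-19629438, minus strand) encodes RelB, the partner of p52 in the noncanonical pathway, and was the least abundant subunit. It was at 8.0 and 8.7 TPM in WT and at 8.2 and 7.6 TPM in Chd8-/- Tregs, on 86 to 122 reads per library, and the genotypes overlapped.

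The precursor subunits also overlapped between genotypes. Nfkb1 (chr3:135584655-135691969, minus strand), the source of p105 and p50, was at 84.2 and 102.4 TPM in WT and at 102.4 and 80.3 TPM in Chd8-/- Tregs. Its highest values were equal in the genotypes, and the log2 difference was -0.03 (95% interval -0.66 to 0.60). Nfkb2 (chr19:46300994-46312400, plus strand), the source of p100 and p52, was at 17.7 and 18.5 TPM in WT and at 23.7 and 15.9 TPM in Chd8-/- Tregs. The Chd8-/- libraries lay on either side of the WT libraries, with a log2 difference of 0.10 (95% interval -0.76 to 0.96). Exons of Nfkb2 share 84 bases, 2.55% of their length, with the antisense gene 4833438C02Rik, and the use of strand in counting is not stated. That gene was listed at 36.6 and 59.5 TPM in WT and at 72.4 and 125.2 TPM in Chd8-/- libraries, above Nfkb2 in each. For Rela, Relb, Rel, Nfkb1 and Nfkb2 the 95% intervals of the log2 difference all covered -0.50 to 0.41, so that differences of that size could not be told from 0 here.

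Rel led the subunit pool in all 4 libraries. The summed TPM of the 5 subunits was 344.6 and 434.7 in WT and 385.6 and 333.4 in Chd8-/- Tregs. Rel made up 58.6% and 63.6% of it in WT and 56.6% and 58.7% in Chd8-/- Tregs, and Nfkb1 made up 24.4% and 23.6% in WT and 26.6% and 24.1% in Chd8-/- Tregs. Rel and Nfkb1 thus supplied most subunit RNA in both genotypes, while Relb gave 2.00% to 2.32%. The share of Rela was 9.52% and 6.56% in WT and 8.61% and 10.2% in Chd8-/- Tregs, and that of Nfkb2 was 5.14% and 4.26% in WT and 6.15% and 4.77% in Chd8-/- Tregs, so that both overlapped between genotypes. In bulk libraries, fewer cells of a type and less RNA per cell cannot be told apart.

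Nfkbid (chr7:30421731-30428749, plus strand) encodes IkBNS, an atypical IkB protein of the nucleus that modulates p50-containing dimers and is known for a part in Treg development. It was listed at 19.1 and 13.3 TPM in the WT libraries and at 6.7 and 6.4 TPM in the Chd8-/- libraries. Both Chd8-/- values were below both WT values, at 0.404 times the WT mean, and it was the only member past a log2 difference of 1 in either direction, though after quantile normalization Nfkbib (1.00) and not Nfkbid (-0.96) was past it. The log2 difference was -1.17 (SE 0.35, 95% interval -2.10 to -0.23, limma adjusted p = 0.451). Of all genes tested, 11.6% were at -1 or less and 5.12% at 1 or more. The values rest on 208 and 153 reads in WT and on 101 and 75 reads in Chd8-/- libraries. Counting error gave 95% Poisson intervals of 11.3 to 15.6 TPM for the lower WT library and 5.46 to 8.15 TPM for the higher Chd8-/- library, so the genotypes stayed apart by counting error alone. Without Chd8-/- replicate 2, the library with the most myeloid and erythroid transcript, the difference was -1.14, and with each of the other libraries left out in turn it was -1.20, -0.92 and -1.41.

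Nfkbib (chr7:28758251-28766644, minus strand) encodes IkB beta, an inhibitor that retains dimers of RelA and c-Rel in the cytoplasm. It was at 23.0 and 26.2 TPM in WT and at 39.0 and 56.6 TPM in Chd8-/- Tregs. Both Chd8-/- values were above both WT values, and the Chd8-/- mean was 1.94 times the WT mean. The log2 difference was 0.91 (SE 0.29, 95% interval 0.13 to 1.69, limma adjusted p = 0.462). Between 238 and 632 reads per library lie behind these values, and the Poisson intervals of 23.2 to 29.4 TPM for WT replicate 2 and 35.8 to 42.4 TPM for Chd8-/- replicate 1 did not meet. The difference was 0.65 without Chd8-/- replicate 2 and 1.17 without Chd8-/- replicate 1. Exons of Nfkbib share 311 bases, 14.6% of their length, with the antisense gene Ccer2, which was listed at 0.6 and 4.0 TPM in WT and at 0.1 and 0.4 TPM in Chd8-/- libraries.

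Nfkbia (chr12:55489409-55492647, minus strand) encodes IkB alpha, the inhibitor that is degraded on activation and resynthesized by NF-kB itself. It was at 184.0 and 224.0 TPM in WT and at 150.0 and 167.2 TPM in Chd8-/- Tregs. Both Chd8-/- values were lower, with a log2 difference of -0.36 (SE 0.19, 95% interval -0.88 to 0.17, limma adjusted p = 0.597), and of -0.43 without Chd8-/- replicate 2 and -0.22 without WT replicate 2. Tnfaip3 (chr10:19000910-19015410, minus strand) encodes A20, a ubiquitin-editing enzyme that ends NF-kB signaling. It was at 35.6 and 30.8 TPM in WT and at 48.7 and 40.5 TPM in Chd8-/- Tregs. Both Chd8-/- values were higher, with a log2 difference of 0.41 (SE 0.24, 95% interval -0.24 to 1.06, limma adjusted p = 0.620), and of 0.54 without Chd8-/- replicate 2. These 2 genes, both known feedback targets of NF-kB, therefore lay on opposite sides of 0, and neither interval excluded 0.

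Nfkbiz (chr16:55811375-55838954, minus strand) encodes IkB zeta, a nuclear IkB protein that acts as a cofactor at some target genes. It was at 68.9 and 68.3 TPM in WT and at 79.7 and 57.4 TPM in Chd8-/- Tregs. The WT libraries were nearly equal and the Chd8-/- libraries lay on either side of them, so the log2 difference was -0.02 (95% interval -0.68 to 0.64).

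**Figure D3:**
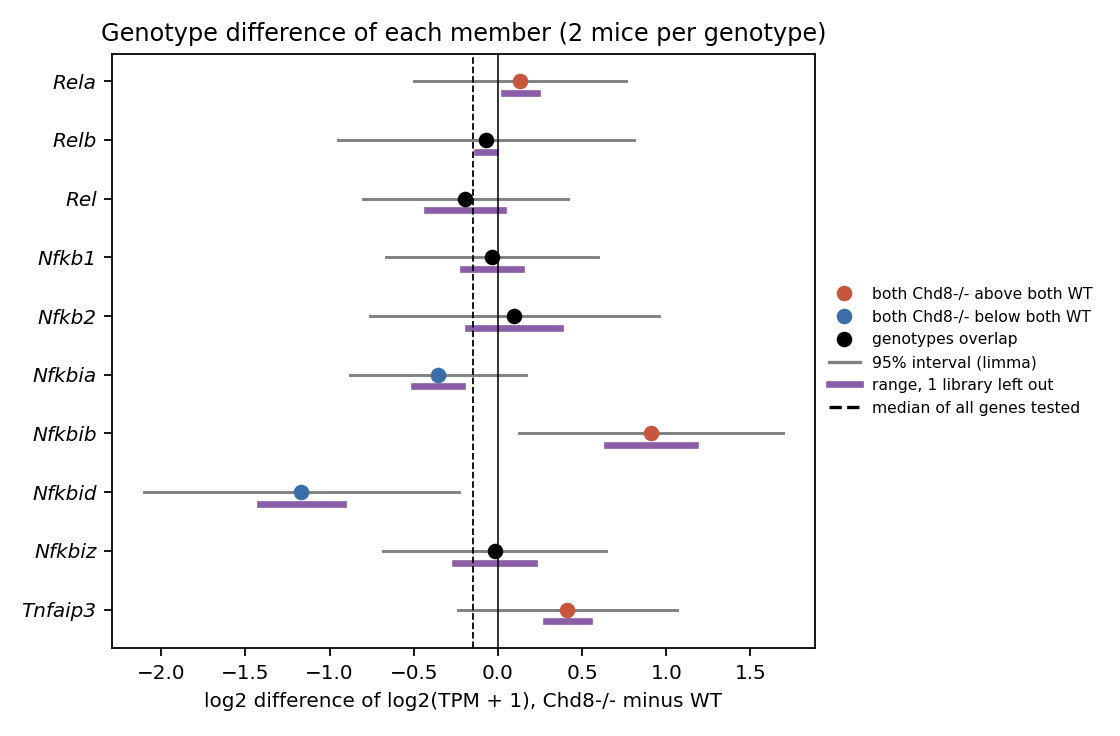
Log2 difference (Chd8-/- minus WT, on the log2(TPM + 1) scale) of each member with its 95% limma interval in grey and the range over the fits with 1 library left out in purple. Only the intervals of Nfkbib (0.13 to 1.69) and Nfkbid (-2.10 to -0.23) lie to one side of 0, and the dashed line marks the median of all genes tested, -0.15.

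The order of the levels within each genotype was read per length from the TPM. In WT Tregs it ran Rel, Nfkbia, Nfkb1, Nfkbiz, Tnfaip3, Rela, Nfkbib, Nfkb2, Nfkbid and Relb. The ranges of the WT mice overlapped for the neighbours Rel and Nfkbia, Tnfaip3 and Rela, and Nfkb2 and Nfkbid. In Chd8-/- Tregs the first 4 places were held by the same genes in the same order, Nfkbib came next with a range that overlapped that of Tnfaip3, and Rela, Nfkb2 and Relb followed. Nfkbid came last, with 6.55 TPM on average against 7.90 TPM for Relb. Sequencing is described with both an Illumina RNA-seq kit and a droplet assay that reads transcript ends, and if ends were read, levels scaled by length would not compare genes.

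With inhibitors on both sides of 0, their sum differed little. The summed TPM of the 5 inhibitors was 330.6 and 362.6 in WT and 324.1 and 328.1 in Chd8-/- Tregs, where both were below both WT values. Its ratio to the subunit sum was 0.959 and 0.834 in WT and 0.841 and 0.984 in Chd8-/- Tregs, which overlapped. The ratios of Nfkbia to Nfkbib and of Nfkbib to Nfkbid did not overlap between genotypes. Nfkbia was 8.0 and 8.55 times as abundant as Nfkbib in WT and 3.85 and 2.95 times in Chd8-/- Tregs. Nfkbib was 1.20 and 1.97 times as abundant as Nfkbid in WT and 5.82 and 8.84 times in Chd8-/- Tregs. These ratios were chosen after the values were seen and restate the differences above on a scale that a common factor per library cannot move. Nfkbie, which encodes IkB epsilon, the third cytoplasmic inhibitor, was at 67.6 and 40.2 TPM in Chd8-/- libraries, beside 49.1 TPM in each WT library. Of the summed TPM of Nfkbia, Nfkbib and Nfkbie, Nfkbib made up 8.98% and 8.75% in WT and 15.2% and 21.4% in Chd8-/- Tregs, while Nfkbia made up 71.8% and 74.8% in WT and 58.5% and 63.3% in Chd8-/- Tregs.

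**Figure D4:**
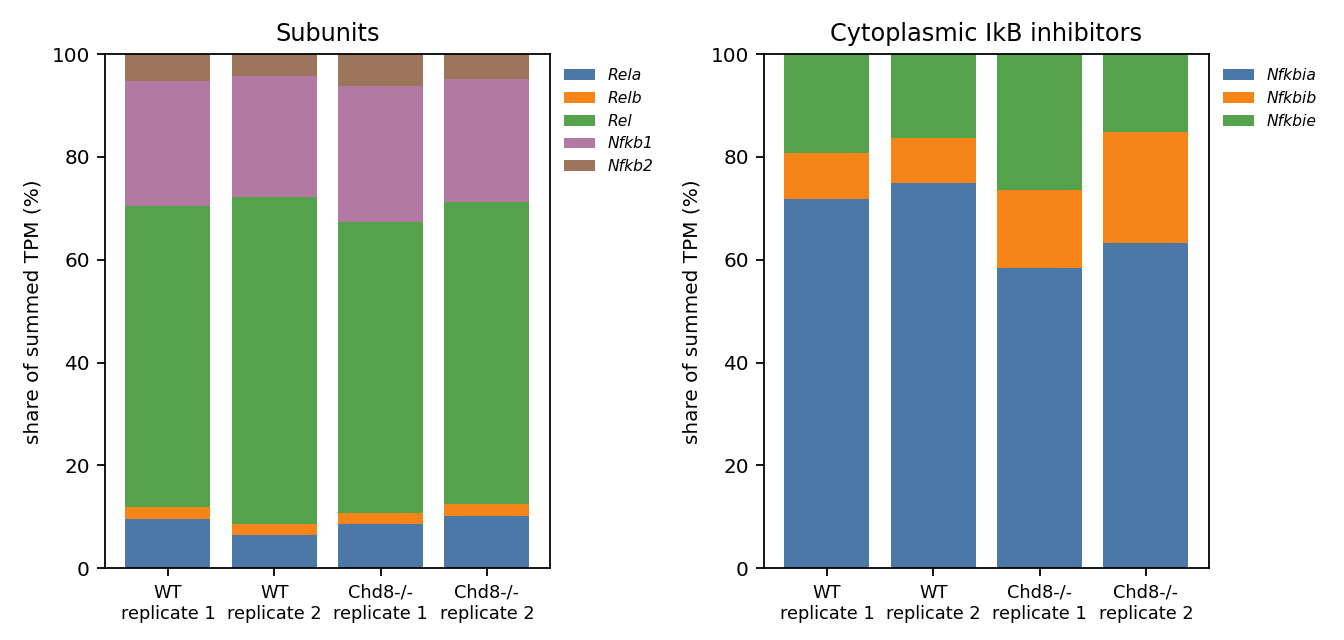
Share (%) of the summed TPM taken by each of the 5 subunits (left) and by each of the 3 cytoplasmic IkB genes (right) in each library. Rel holds 56.6% to 63.6% of the subunit pool in all 4 libraries, and the Nfkbib share of the cytoplasmic IkB pool is 8.75% and 8.98% in WT and 15.2% and 21.4% in Chd8-/- Tregs.

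The other genes of the pathway were counted by role around the members, from lists that share some genes with each other. None of them passed an adjusted p of 0.05. Of 6 further IkB-type inhibitors and NF-kB repressors, 1 was higher and 2 were lower in both Chd8-/- libraries. These are 16.7% and 33.3%, beside 14.8% and 27.8% of all genes tested, and the median log2 difference was -0.14. Bcl3, a nuclear IkB protein that acts with p50 and p52, was at 36.9 and 40.9 TPM in WT and at 76.5 and 55.7 TPM in Chd8-/- Tregs, a log2 difference of 0.73 (limma adjusted p = 0.479). It was on the same side as Nfkbib and opposite to Nfkbid. Nkiras2 and Nkiras1, small Ras-like proteins that bind IkB, had log2 differences of -0.43 and -0.33. Nkiras2 was at -0.16 without WT replicate 2 and at -0.20 after quantile normalization, and Nkiras1 was at -0.035 without Chd8-/- replicate 2 and at -0.084 after quantile normalization.

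Upstream of the inhibitors, 2 of 19 genes of the IKK complex and canonical activation were higher and 6 were lower in both Chd8-/- libraries. These are 10.5% and 31.6%, near the 14.8% and 27.8% of all genes tested. The list median of -0.23 became 0.02 without Chd8-/- replicate 2. The adaptor Traf5 was at 89.5 and 74.7 TPM in WT and at 63.9 and 33.5 TPM in Chd8-/- Tregs, and the adaptor Traf2 was at 15.4 and 17.7 TPM in WT and at 9.9 and 9.6 TPM in Chd8-/- Tregs. Sharpin, a subunit of the linear ubiquitin ligase, was at 27.4 and 17.9 TPM in WT and at 35.2 and 40.3 TPM in Chd8-/- Tregs. The log2 difference of Traf5, -0.81, was -0.35 without Chd8-/- replicate 2 and -1.26 without Chd8-/- replicate 1. That of Sharpin, 0.74, was 0.45 without WT replicate 2.

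In the noncanonical branch, which feeds the processing of the Nfkb2 product, 6 of 7 genes were tested. In both Chd8-/- libraries 1 was higher and 1 lower (16.7% each, beside 14.8% and 27.8% of all genes tested). Map3k14, the kinase NIK that triggers this processing, was at 33.2 and 51.7 TPM in WT and at 18.4 and 8.0 TPM in Chd8-/- Tregs. Its values did not overlap, with a log2 difference of -1.68 (SE 0.50, limma adjusted p = 0.450), beside Nfkb2 at 0.10 and Relb at -0.07. The Map3k14 difference was -2.24 without Chd8-/- replicate 1 and -1.13 without Chd8-/- replicate 2. Birc2, a ubiquitin ligase that restrains NIK, was at 42.2 and 37.1 TPM in WT and at 68.5 and 44.7 TPM in Chd8-/- Tregs, a log2 difference of 0.47 that was 0.17 without Chd8-/- replicate 1 and 0.78 without Chd8-/- replicate 2.

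Around Tnfaip3, 17 other ubiquitin-editing and negative regulators were tested, of which 2 were higher and 1 was lower in both Chd8-/- libraries. These are 11.8% and 5.88%, beside 14.8% and 27.8% of all genes tested, and the median was 0.07. Tnip3, which encodes an A20-binding protein, was at 17.4 and 14.2 TPM in Chd8-/- libraries, beside 8.4 TPM in each WT library. N4bp1, an inhibitor of NF-kB signaling, was at 32.0 and 24.1 TPM in WT and at 45.4 and 59.4 TPM in Chd8-/- Tregs. Otulin, which removes linear ubiquitin, was at 57.8 and 55.5 TPM in WT and at 45.8 and 39.4 TPM in Chd8-/- Tregs. The log2 differences of these 3 genes were 0.83, 0.88 and -0.41, beside 0.41 for Tnfaip3.

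Of 15 receptors and ligands of the TNF family, 4 were higher and 4 were lower in both Chd8-/- libraries (26.7% each, beside 14.8% and 27.8% of all genes tested). The median was -0.01, and it was -0.39 without Chd8-/- replicate 1 and 0.29 without Chd8-/- replicate 2. Tnfsf4, the ligand OX40L, was at 4.3 and 3.1 TPM in WT and at 35.1 and 52.1 TPM in Chd8-/- Tregs. The groups were the farthest apart on the log2 scale among the tested genes of the pathway lists, with a difference of 3.23 (SE 0.36, limma adjusted p = 0.373) and of 2.95 without Chd8-/- replicate 2. Tnf, a target as well as an inducer of NF-kB, was at 66.7 and 50.0 TPM in WT and at 35.1 and 16.7 TPM in Chd8-/- Tregs, a log2 difference of -1.22 that was -0.70 without Chd8-/- replicate 2. Tnfrsf1a, 1 of its receptors, was at 34.8 and 20.2 TPM in WT and at 7.8 and 13.9 TPM in Chd8-/- Tregs, a log2 difference of -1.27. Tnfrsf1b, another of its receptors, was at 205.4 and 220.5 TPM in WT and at 299.8 and 197.0 TPM in Chd8-/- Tregs. Its values overlapped, with a log2 difference of 0.19 that was -0.11 without Chd8-/- replicate 1. The Tnfrsf1a difference was -0.89 without Chd8-/- replicate 1 and -1.65 without Chd8-/- replicate 2.

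Of 45 NF-kB target genes other than the members, 41 were tested, with 12 higher and 5 lower in both Chd8-/- libraries (29.3% and 12.2%, beside 14.8% and 27.8% of all genes tested) and a median of 0.02. The 12 include Bcl2a1a, Bcl2a1b and Bcl2a1d, near-identical copies between which reads may be split, so their separate values are uncertain. Ebi3, a subunit of the cytokine IL-35, was at 29.3 and 46.8 TPM in WT and at 143.6 and 172.3 TPM in Chd8-/- Tregs. The groups lay far apart, with a log2 difference of 2.06 (SE 0.30, limma adjusted p = 0.373) and of 1.93 without Chd8-/- replicate 2. The chemokine gene Ccl5 was at 232.0 and 157.6 TPM in WT and at 10.1 and 157.0 TPM in Chd8-/- Tregs. The low value was in Chd8-/- replicate 1 alone, so that its log2 difference of -2.20 became -0.28 without that library and -4.11 without Chd8-/- replicate 2. Ier3, an early response gene, was at 2.6 and 18.8 TPM in WT and at 2.5 and 1.0 TPM in Chd8-/- Tregs, a log2 difference of -1.67 that was -0.44 without WT replicate 2 and -2.90 without WT replicate 1.

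**Figure D5:**
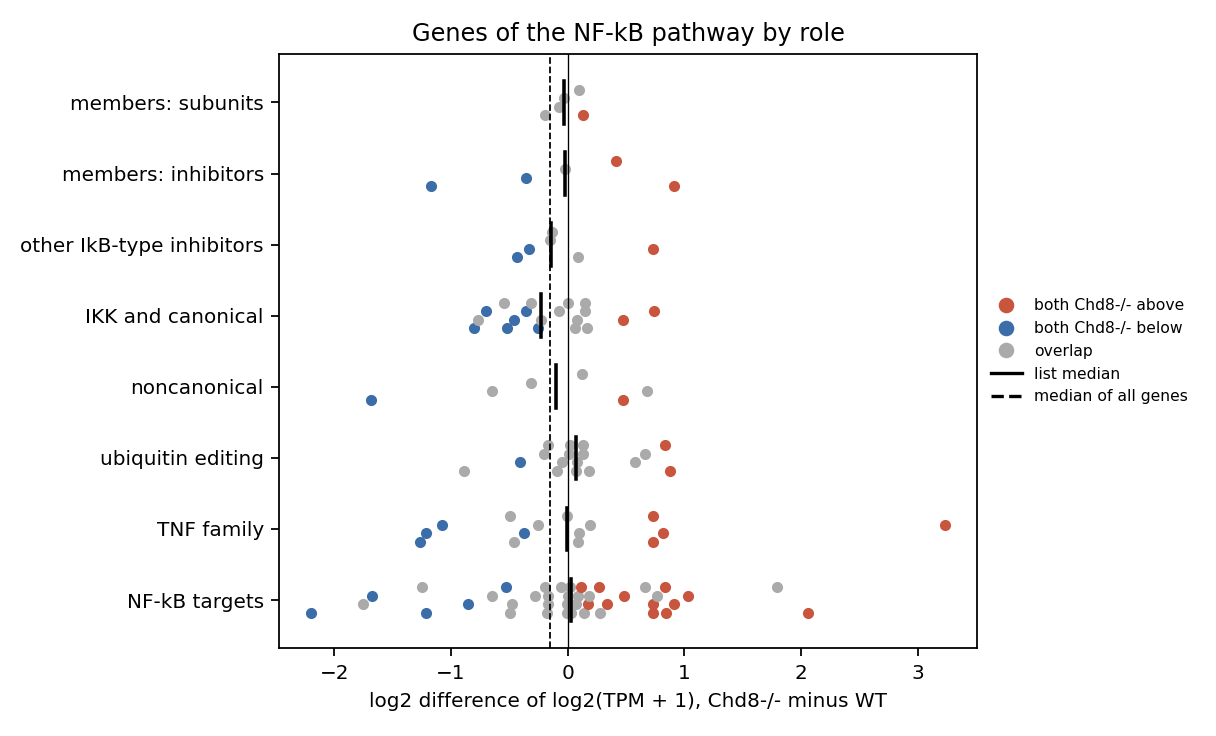
Log2 difference (Chd8-/- minus WT, log2(TPM + 1)) of each tested gene by role, with genes higher in both Chd8-/- libraries in red, lower in both in blue and overlapping in grey. List medians (black bars) run from -0.23 for the IKK and canonical list to 0.07 for the ubiquitin-editing regulators, and the dashed line is the median of all genes tested, -0.15.

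Of 11 immediate early and stress genes, which can report handling of the cells as well as activation, 8 were tested. In both Chd8-/- libraries 3 were higher and 2 lower (37.5% and 25.0%, beside 14.8% and 27.8% of all genes tested). Jun was at 4.7 and 10.4 TPM in WT and at 20.1 and 29.3 TPM in Chd8-/- Tregs. Dusp1 had a log2 difference of 0.64, with 0.19 without Chd8-/- replicate 1 and 1.10 without Chd8-/- replicate 2, and Ier2 one of -0.41, with -0.22 without Chd8-/- replicate 2. The part of handling in the values of inducible members such as Nfkbia and Tnfaip3 was not tested. Of the 10 Treg markers, 3 were higher and 2 lower in both Chd8-/- libraries, beside 14.8% and 27.8% of all genes tested. The 3 were Tnfrsf18, Lrrc32 and Ctla4, which encode the Treg surface proteins GITR, GARP and CTLA-4, with log2 differences of 0.73, 0.57 and 0.51, the last with 0.20 without Chd8-/- replicate 1 and 0.81 without Chd8-/- replicate 2. The 2 were the T cell genes Cd4 and Cd3e, with log2 differences of -0.36 and -0.26.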

How the data were processed

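The RNA-seq libraries (2 WT and 2 Chd8-/- mice, YFP+ Tregs) were grouped by the W and K of the sample titles. After trimming, the authors mapped reads to mm10 (STAR), discarded duplicates (sambamba) and assigned reads to RefSeq genes (featureCounts). The deposited values are TPM, rounded to 0.1. The tool versions in the submitters' processing notes include STAR 2.6.1e and featureCounts 1.6.2. Genes that reached 1 TPM in at least 2 libraries (15240) were compared on the log2(TPM + 1) scale. A linear model of genotype was fitted in limma 3.58.1 (R 4.3.3), moderated with a mean-variance trend, and two-sided p-values were adjusted after Benjamini and Hochberg. Fold changes on this scale understate the change of low genes. Rows of 2 names that the table repeats (4 rows) were dropped.

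Reads behind each value were recovered from steps of TPM times exon length, a choice made after the data were seen. In genes with low counts, 85.6% to 96.2% of values came out within 0.2 reads of a whole number, and the Poisson intervals from these reads cover counting error only. The limma fit and the recovery of reads were tested on simulated data, and the other steps were not. The p-values test the difference between genotype means against a spread between mice that is moderated with that of other genes. The members, the gene lists and the tests were chosen with earlier results of these data known. All 10 members are described in full, and from each list the 3 genes with the largest absolute log2 difference among those with a mean TPM of at least 5 and no overlap between genotypes are named, except that the Bcl2a1 copies, Nfkbie, Foxp3, Cd4 and Cd3e were named after their values were seen. Markers of other cells are given by their sums, and 1 further list is not reported here.

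The ATAC-seq and CHIP-seq tables hold peaks in mm39, the annotation used here is of GRCm38, and peaks at the members are not analysed here. Promoter sequences are from RefSeq (GRCm38). The result was recomputed without a filter or with a mean of 5 TPM required, with a pseudocount of 0.1 or 5 TPM, after quantile normalization, with a replicate block, without the trend, and with each library left out in turn. Python 3.11.15, pandas 2.3.3, scipy 1.17.1 and matplotlib 3.10.9 were used.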

Additional observations from a re-analysis of the deposited data

How the results depend on the processing

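No member passed an adjusted p of 0.05 in limma under the alternatives that keep all 4 libraries. The smallest adjusted p among the members ranged from 0.420 to 0.610 in these fits. Of all genes, 2 of 11351 passed with a mean of 5 TPM required, and 0 passed in each of the other fits with all libraries. Of 110 values of the members' log2 differences under alternatives, 103 kept their direction and 7 reversed. Many of these values could not reverse, so the count says little of stability. The changed filters, the replicate block and the fit without the trend leave a member's difference as it was. For members without overlap, leaving out 1 library cannot change the direction. The genes named from the lists were picked for not overlapping, which fixes their direction when 1 library is left out, so it says nothing of stability. Of genes named outside that rule, Nfkbie (0.09) was at -0.28 without Chd8-/- replicate 1, and Foxp3 (0.06) was at -0.03 there and after quantile normalization. Quantile normalization, which moved the median of all genes from -0.15 to 0.00, turned Relb to 0.17 and Nfkbiz to 0.0043. It left 8 members without overlap between genotypes, beside 42.2% of all genes, and the member past 1 was then Nfkbib and not Nfkbid. With 1 library left out in turn, Rel ranged from -0.42 to 0.033 (above 0 without WT replicate 2), Nfkb1 from -0.21 to 0.14 (above 0 without Chd8-/- replicate 2 or WT replicate 2), Nfkb2 from -0.18 to 0.37 (below 0 without Chd8-/- replicate 1) and Nfkbiz from -0.25 to 0.21 (above 0 without Chd8-/- replicate 2). The number of members past a log2 difference of 1 was 0 with a pseudocount of 5 TPM, beside 6.90% of all genes. With 1 library left out it was 0 to 2, being 0 without WT replicate 1 and 2 (Nfkbib and Nfkbid) without Chd8-/- replicate 1 or WT replicate 2. Of all genes, 15.0% to 28.2% were past 1 in these fits. Members without overlap numbered 10 without Chd8-/- replicate 1 (81.7% of all genes) and 7 without Chd8-/- replicate 2 (71.4% of all genes). They numbered 7 without WT replicate 1 (65.3%) and 5 without WT replicate 2 (64.8%). The shares are high since 1 library against 2 overlaps less often. The members' median ranged from -0.19 without Chd8-/- replicate 1 to 0.13 without Chd8-/- replicate 2. A left-out library leaves 1 mouse in a genotype, which is then assumed to vary like the other genotype.

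The medians of the pathway lists, added after the data were seen, moved most in the noncanonical list (-0.10 to 0.28 and -1.13 without Chd8-/- replicate 1 and 2) and the TNF family list (-0.01 to -0.39 and 0.29). The cause of these moves was not tested. Same-numbered libraries did not deviate together (r = -0.0117 over 15240 genes). A single correlation from 2 libraries per genotype cannot tell whether the numbers pair the mice. The fit with the replicate block called 0 members. The planned ATAC-seq and CHIP-seq alternatives were not run. With 2 mice per genotype, the members' 95% intervals are wide, and Relb and Nfkbid rest on the fewest reads.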
